A study of Ananas comosus with 78 samples.

Results

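Pineapple has 5 genes that the study lists as ethylene receptors, and they are described here over all conditions sampled. They were taken by gene identifier, with no measured value involved, and all 5 were found among the 27024 genes of the deposited tables. These are Aco010603, Aco010452, Aco002499, Aco006353 and Aco024515. The first 4 had reads in all 78 libraries, and Aco024515 was close to the detection limit.

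Ethylene receptors are membrane proteins that bind the gaseous hormone ethylene. They are negative regulators: without the hormone they keep the protein kinase CTR1 active, which holds back EIN2, and binding of ethylene switches the receptors off, so that EIN2 can act on the EIN3/EIL transcription factors and these on the ethylene response transcription factors (ERTF). In Arabidopsis, transcripts of some receptors rise after exposure to ethylene and those of others do not, and newly made receptor restores part of the repression. Ethephon breaks down in plant tissue to ethylene and is used on pineapple farms to force flowering.

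RNA was sequenced from the stem apex and from the base of the "D" leaf, the most recently matured leaf, of field plants of the cultivar 'MD1', PRI 73-50, with 3 libraries for each of 26 conditions and 3 plants pooled in each library. Into the plant center went either 10 ml of water, for the controls, or the same volume holding 50 mg of ethephon. Labels give the apex samplings as 1 to 8, read as 6 h, days 1 to 6 and day 8, and those of the leaf base as 1 to 5, read as 6 h and days 1 to 4. The study counts the 6 h to the end of processing, and these plants were harvested earlier, on the morning of treatment. All groups came from 1 plot of a commercial field, divided into 3 replications that each held both treatments, though the labels do not say that a replicate number marks one of them, and plant age is not given in the sources used here. Leaf primordia stayed on the excised apex, so that apex libraries also hold leaf RNA, and in such bulk tissue fewer cells of a type and less RNA per cell cannot be told apart. The shoot meristem markers chosen to check the apex, 2 WUSCHEL homologs, 2 Knotted-1-like genes and 1 CLAVATA3/ESR-related gene, summed to between 43.4 and 610 CPM (counts scaled to a library of 1e+06 reads) in the apex libraries and to between 1.38 and 7.97 CPM in the leaf base libraries. Most of the apex sum came from the Knotted-1-like gene Aco015873, with condition means of 47.2 to 451 CPM at the apex and 0.0941 to 3.08 CPM at the leaf base. The CLAVATA3/ESR-related gene Aco026242 did not separate the tissues, with means of 2.27 to 6.99 and of 0.889 to 3.03 CPM. The WUSCHEL homolog Aco006233 had no count in any water-control leaf base library, but water-control apices of 6 h held only 1 to 2 counts. The other WUSCHEL homolog, Aco015382, did not separate the tissues in early controls. Its means were 0.4655 to 0.899 CPM in water-control apices from 6 h to day 3, and 0.286 to 1.31 CPM at the leaf base. Total counts per library ran from 1418697 to 13180667, with a median of 5364715.5. No sequencing lane held both treatments at any apex sampling or at the last 2 leaf base samplings, so that lane and treatment cannot be told apart there, except at the apex on day 6, where lanes shared with libraries of other samplings allow lane as a term of a joint fit. Lanes were shared at the leaf base at the first 3 samplings.

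The 5 gene models fell into separate forms by their exons, in coordinates of the Acomosus_321_v3 assembly. Aco010603 lies on linkage group 7 from 12579700 to 12583956 on the plus strand, with 3 exons of 36, 1821 and 730 bp. Aco010452 lies on linkage group 3 from 2575324 to 2582500 on the minus strand, also with 3 exons, of 303, 1820 and 1330 bp. The long middle exons of these genes differ by 1 bp. Aco002499 lies on linkage group 4 from 1135204 to 1138510 on the plus strand and has 5 exons. Aco006353 lies on linkage group 14 from 2966306 to 2974546 on the plus strand and has 6 exons. Aco024515 lies on linkage group 23 from 4569317 to 4575670 on the minus strand and has 5 exons. These last 3 genes share an exon of 369 bp followed by an exon of 267 bp, a pair of lengths that no other gene of the 27024 has. No exon of a receptor overlapped an exon of another gene, and no receptor lay within another gene's span, which matters because reads were counted without regard to strand. Reads with several positions were counted as well, so reads shared between near-identical copies cannot be assigned with certainty.

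**Figure D1:**
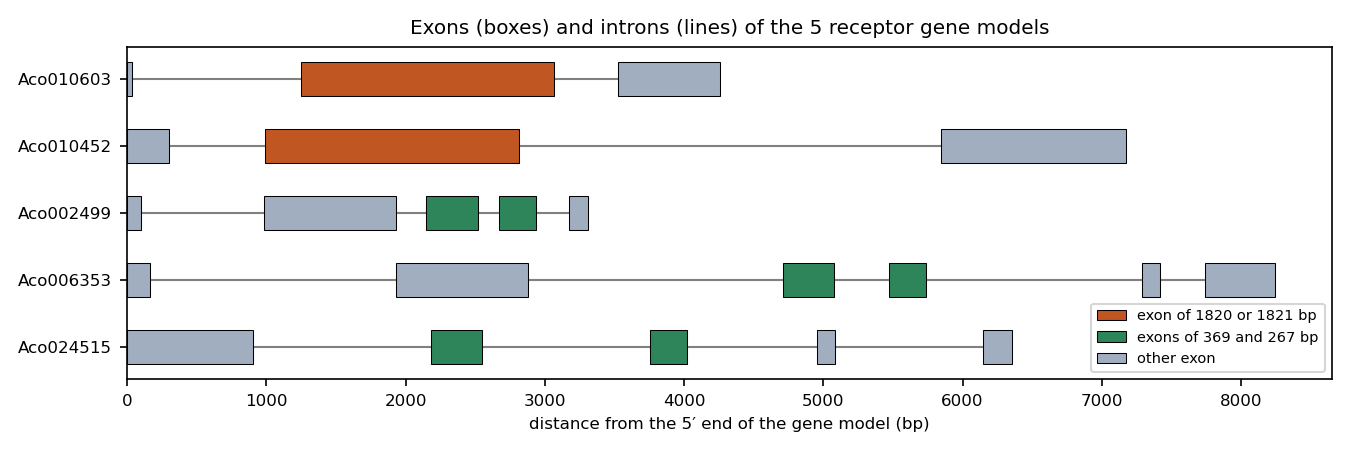
Exons (boxes) and introns (lines) of the 5 receptor gene models, drawn to scale as distance in bp from the 5′ end of each model. The exons of 1820 and 1821 bp mark Aco010452 and Aco010603, and the exons of 369 and 267 bp mark the other 3 genes.

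Of the 4 receptors with reads in every library, the pair with the long exon varied most over the conditions. Expression of Aco010603 ran from a mean of 4.38 ± 0.42 log2 CPM (SD, n = 3) in water-control leaf bases at 6 h to 8.03 ± 0.11 in ethephon-treated leaf bases at 6 h, a range of 3.65 that was wider than in 68.7% of the 19824 genes that reached 1 CPM in 3 or more libraries. Aco010452 ran from 6.92 ± 0.26 in ethephon-treated leaf bases on day 3 to 9.33 ± 0.13 in ethephon-treated apices on day 1, a range of 2.42, which was also the median range of those genes. Aco002499 moved over 1.01, from 6.66 ± 0.41 in water-control apices at 6 h to 7.67 ± 0.13 in ethephon-treated leaf bases on day 1. Aco006353 moved over 0.93, from 6.05 ± 0.07 to 6.98 ± 0.06, both in ethephon-treated apices, on day 1 and on day 8. These last ranges were wider than in 8.20% and 5.83% of the genes.

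**Figure D2:**
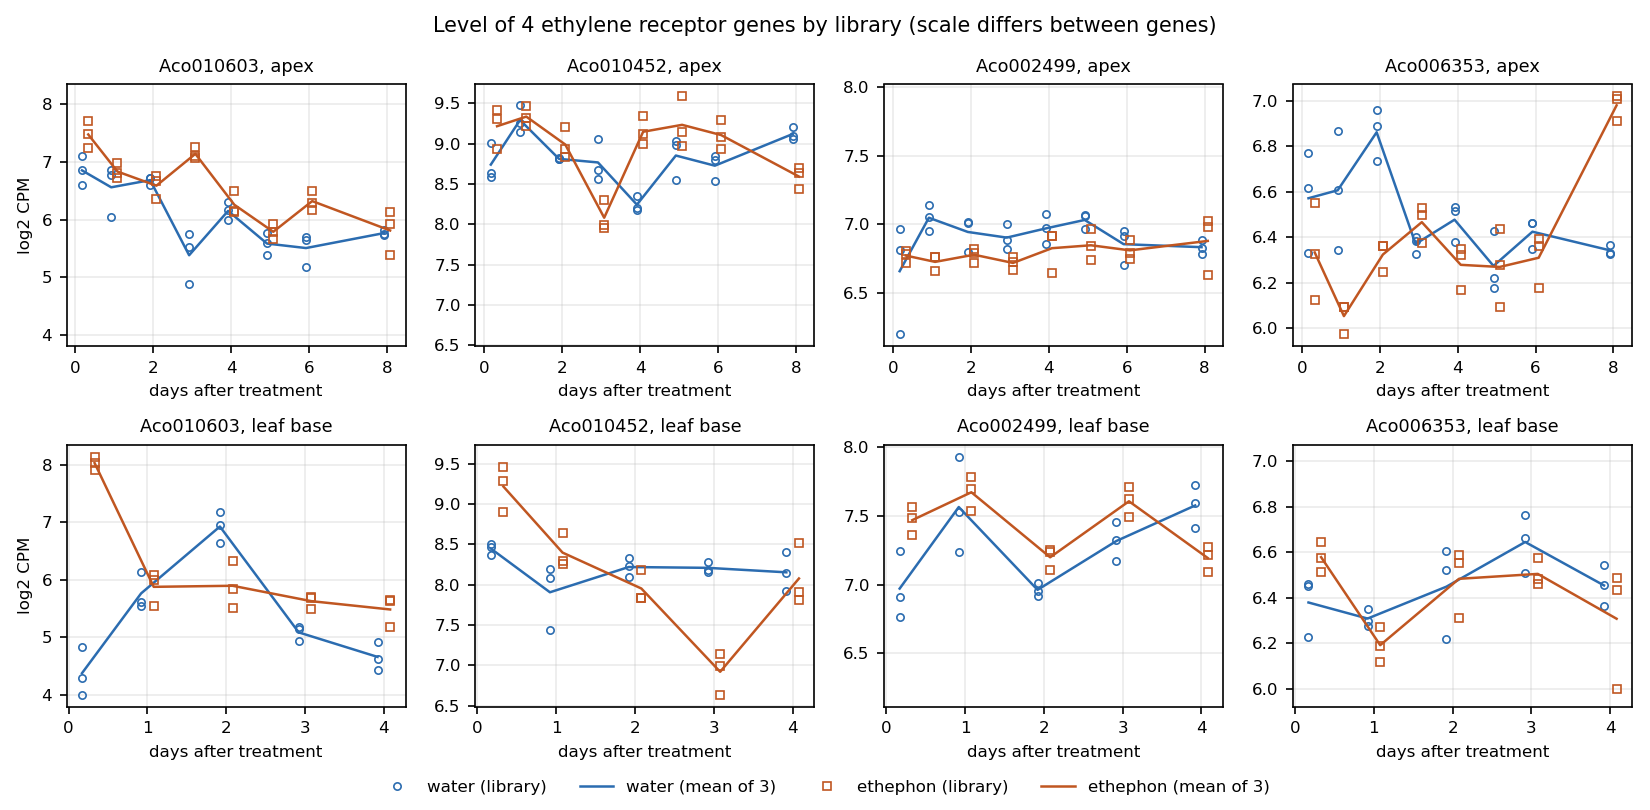
Level of 4 receptor genes (log2 CPM, vertical axis, with a scale that differs between genes) against days after treatment, at the apex (upper row) and the leaf base (lower row). Each open symbol is 1 library, set slightly sideways by treatment, and each line joins means of 3 libraries, in blue for water and orange for ethephon. Aco010603 at the leaf base at 6 h shows the widest gap between the treatments, from 4.38 to 8.03.

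Levels were compared between genes only per kb of exon length. On the scale of mean CPM per kb, Aco010452 was first in 19 of the 26 conditions and Aco002499 in the other 7, all of these at the leaf base. Aco010603 stood in place 4 in 19 conditions and in place 2 in ethephon-treated apices and leaf bases at 6 h, where its libraries overlapped those of Aco002499. Aco024515 was last in all 26. At the leaf base the values of Aco002499 and Aco010452 overlapped between libraries on days 1, 3 and 4 in water controls and on days 1, 2 and 4 after ethephon. This overlap does not settle their order, since both genes were read in the same libraries. As mean shares of the 5 genes within a library (± SD), Aco002499 and Aco010452 stood at 45.55 ± 2.07 and 30.4 ± 3.23% in controls on day 1. They stood at 38.4 ± 2.04 and 37.4 ± 2.17% on day 3 and at 44.8 ± 0.301 and 35.2 ± 1.95% on day 4. After ethephon they stood at 42.6 ± 2.71 and 37.0 ± 1.94% on day 1, 37.8 ± 2.28 and 33.5 ± 2.44% on day 2, and 38.1 ± 3.77 and 37.5 ± 8.87% on day 4. In ethephon-treated leaf bases on day 3 the values of the 2 genes did not overlap, with 108 CPM per kb for Aco002499 and 35.4 for Aco010452. The summed level of the 5 genes was lowest in that condition, at 200.6 ± 11.7 CPM per kb (SD, n = 3), and highest in ethephon-treated leaf bases at 6 h, at 414 ± 43.1. Of that highest sum, Aco010452 made up 41.9 ± 3.97%, Aco010603 24.5 ± 1.5%, Aco002499 23.7 ± 1.33% and Aco006353 9.84 ± 1.5%. In water-control leaf bases at 6 h the sum was 214 ± 14.7 CPM per kb, of which Aco010603 made up 3.88 ± 1.22%.

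**Figure D3:**
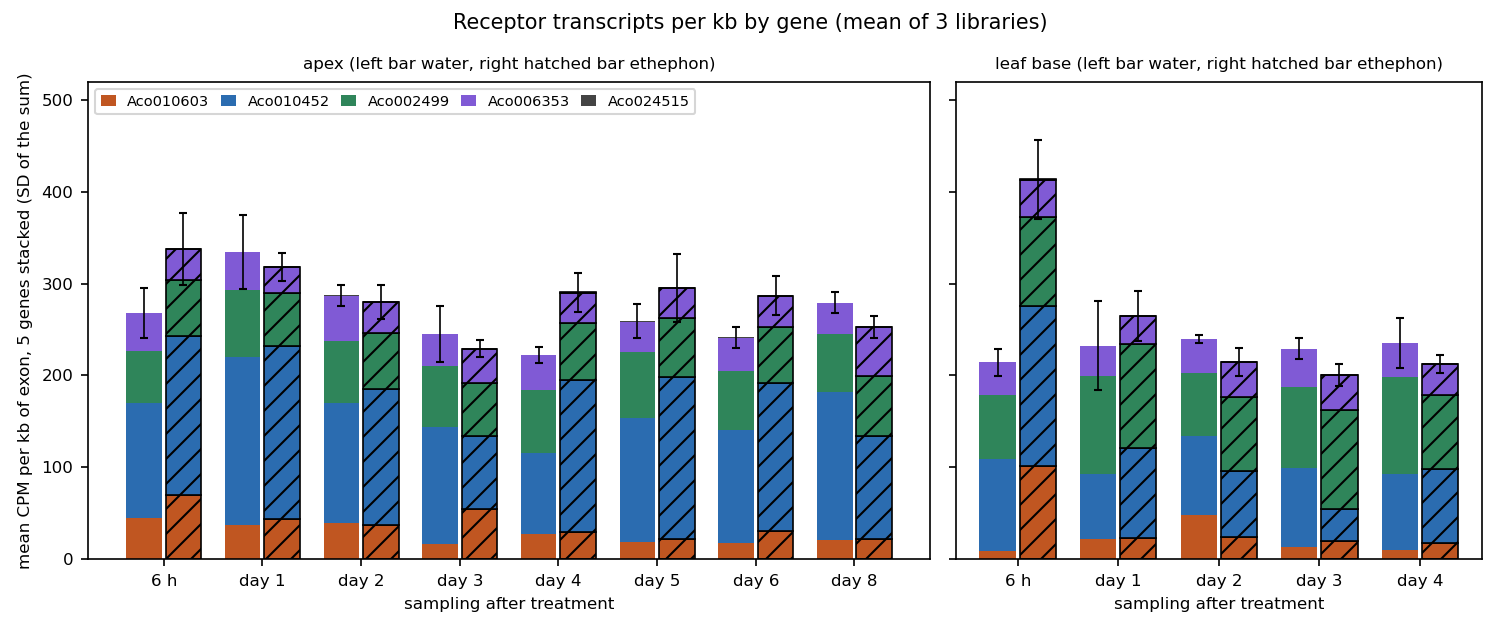
Mean CPM per kb of exon for the 5 receptor genes, stacked, by sampling at the apex (left panel) and the leaf base (right panel), with water as the left bar and ethephon as the hatched right bar of each pair. Error bars are the SD of the sum over 3 libraries. The tallest bar is the ethephon-treated leaf base at 6 h at 414, and Aco024515 is too low to be seen.

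Aco024515 had 181 counts in the whole series and at most 13 in a library. It was at 0 in 17 libraries, where a count of 0 allows up to 3 counts, or between 0.392 and 1.51 CPM at the depth of those libraries (counting error only). A further 44 libraries held 1 to 3 counts and 17 held more, and the highest level was 1.94 CPM in an ethephon-treated apex library on day 4. No change of this gene was detectable at this depth. It was called in 0 of 13 comparisons of ethephon with water by edgeR's quasi-likelihood test, at an unadjusted p under 0.05 in 0, and in 0 by DESeq2, which gave it an adjusted p in 3. No fold change is given for it.

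Ethephon was compared with water at each tissue and sampling, with 3 libraries on each side. Calls needed an adjusted p under 0.05 together with a change of 2-fold or more. Of 65 tests of the 5 receptors, 4 were called, 2 up and 2 down, beside 7.86% of all tests of all genes over the 13 comparisons. With the limit on the fold change set aside, 16 of the 65 had an adjusted p under 0.05, beside 19.4% of all tests. Calls were made for Aco010603 in 3 comparisons and for Aco010452 in 1. No call was made for Aco002499, Aco006353 or Aco024515.

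The share of all genes called set the background for each sampling. In order of sampling, it was 3.74, 11.3, 15.1, 14.4, 5.66, 5.06, 6.05 and 7.54% at the apex, from 6 h through day 8. For the leaf base it was 19.6, 1.62, 1.48, 7.13 and 3.64%, from 6 h through day 4. By the adjusted p alone it was 4.51, 29.6, 37.7, 29.3, 27.7, 15.8, 22.7 and 25.9% at the 8 apex samplings in order, and 31.5, 3.57, 2.00, 16.0 and 6.55% at the 5 leaf base samplings.

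**Figure D4:**
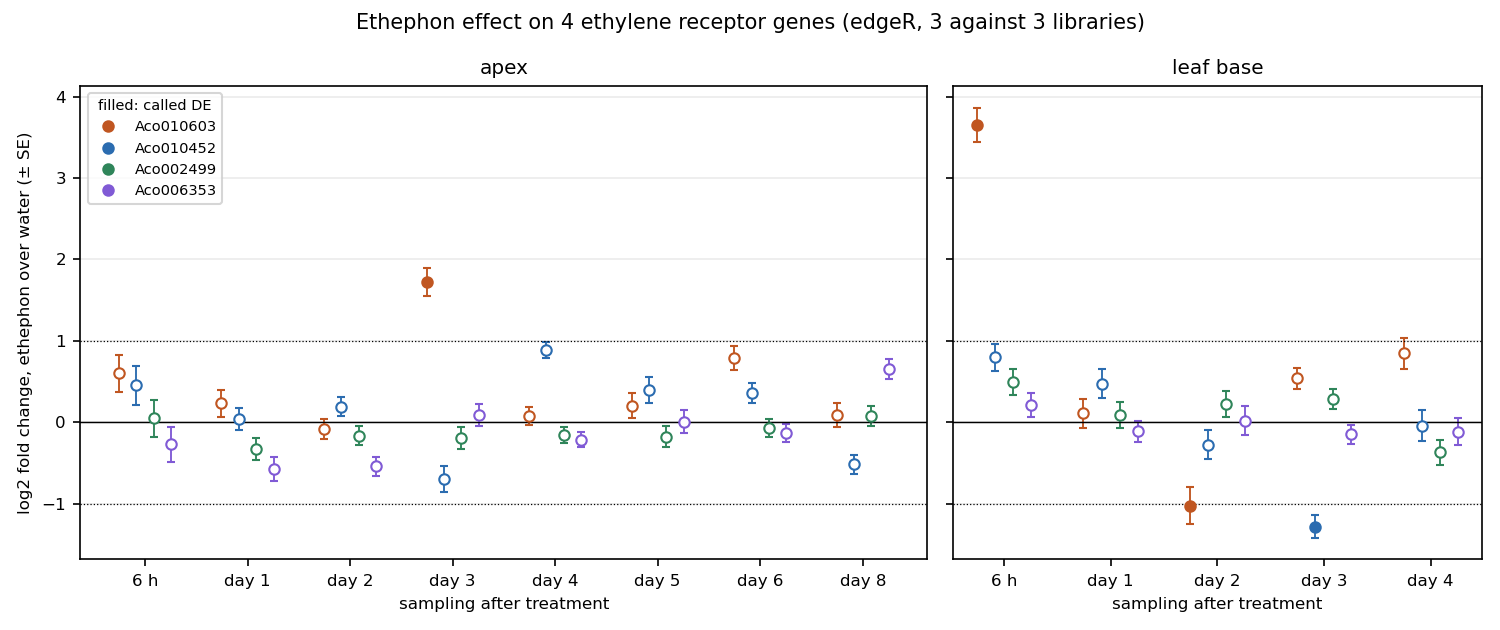
Log2 fold change of ethephon over water (vertical axis, ± SE, edgeR, 3 against 3 libraries) for 4 receptor genes at the 8 apex samplings and the 5 leaf base samplings. Filled points are calls and dotted lines mark a change of 2-fold. Aco010603 stands highest, at 3.65 at the leaf base at 6 h.

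The largest change of a receptor was the rise of Aco010603 at the leaf base at 6 h. Its level was 28.4, 19.7 and 16.0 CPM in the 3 water-control libraries and 241, 282 and 262 CPM in the 3 ethephon-treated libraries. All treated libraries lay far above all controls. They also lay above every control leaf base library of the other samplings, the highest of which held 145 CPM. Aco010603 was up-regulated by 3.65 ± 0.21 on the log2 scale (± SE), or 12.6-fold, with an adjusted p of 2.25e-07. It was 1 of 5 receptors called up, beside 8.59% of all genes. The rise was 3.46 to 3.90 with each library left out in turn. Within the lanes that held both treatments the log2 ratio was 3.31 and 3.97, and it was 3.66 with lane as a term of a joint fit. By day 1 the treated leaf bases were back at 46.8, 68.1 and 63.7 CPM beside 46.8, 70.1 and 48.8 CPM in the controls, which overlapped.

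At the apex, Aco010603 was up-regulated on day 3. Its level was 45.7, 29.5 and 53.5 CPM in the water-control libraries and 137, 152 and 134 CPM in the ethephon-treated libraries, with no overlap. The change was 1.73 ± 0.17 on the log2 scale, or 3.31-fold, with an adjusted p of 9.73e-08, and it was 1 of 5 receptors called up beside 7.20% of all genes. With each library left out it was 1.5 to 1.9. The control level on day 3 was itself lower than on the neighboring days, with means of 103 CPM on day 2, 42.9 on day 3 and 71.2 on day 4, while the treated means were 96.8, 141 and 77.0 CPM. The same apices differed in the meristem markers, whose sum was 65.2 to 115 CPM in the controls and 286 to 308 CPM after ethephon, with 4 of the 5 markers called up. The study reports the called markers as up-regulated by ethephon at the apex in the same samples. Their calls are therefore no independent evidence of how much meristem these apices held. The part of the markers in the result was not tested.

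On day 2 a fall of Aco010603 was called at the leaf base. Its level was 145, 124 and 99.96 CPM in the controls and 57.5, 80.6 and 45.6 CPM after ethephon. The groups did not overlap, and the change was -1.02 ± 0.23 on the log2 scale with an adjusted p of 0.0405, 1 of 5 receptors called down beside 0.582% of all genes. The call lay close to both limits. It was lost without water replicate 1 (-0.87, adjusted p 0.0272), water replicate 2 (-1.02, 0.148), ethephon replicate 1 (-0.98, 0.128) or ethephon replicate 3 (-0.85, 0.231), and kept without either of the other libraries, with values from -1.27 to -0.85 over the 6 fits. It was also lost with the replicate number as a block (-1.04, adjusted p 0.0827), with genes under 1 CPM left out (-1.01, 0.0681) and in the joint fit without lane (-0.99, under 2-fold). The value was negative in all of these. Within the lane that held both treatments the log2 ratio was -1.22, and with lane as a term of the joint fit it was -1.15 and called (adjusted p 0.000356). The control leaf bases on day 2 held more of this transcript than those on any other day, with a mean of 123 CPM beside 21.4 at 6 h, 55.3 on day 1, 34.1 on day 3 and 25.5 on day 4. The treated means stayed between 45.2 and 61.2 CPM from day 1 to day 4.

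In 3 further comparisons Aco010603 was higher after ethephon with an adjusted p under 0.05 but less than 2-fold. These were 0.79 ± 0.15 on the log2 scale at the apex on day 6 (adjusted p 0.000837), 0.54 ± 0.13 at the leaf base on day 3 (0.00922) and 0.85 ± 0.19 at the leaf base on day 4 (0.0162). With each library left out in turn, the highest adjusted p by edgeR was 0.00809, 0.0532 and 0.162 in the same order. In each of these the groups did not overlap, for which no share of all genes is given. In leaf bases of day 4, for example, the controls held 24.7, 21.7 and 30.1 CPM and the treated libraries 49.5, 49.97 and 36.2 CPM. With lane as a term of a joint fit, the apex difference on day 6 was 1.27 ± 0.32 and was called (adjusted p 0.0107). In the other 7 comparisons the fitted log2 difference lay between -0.08 and 0.60, with adjusted p of 0.16 or more.

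For Aco010452, the receptor with the highest level per kb in most conditions, the call was a fall at the leaf base on day 3. Its level was 286, 310 and 291 CPM in the controls and 127, 99.3 and 141 CPM after ethephon. All treated libraries lay under all controls. The change was -1.28 ± 0.14 on the log2 scale with an adjusted p of 1.15e-05, 1 of 5 receptors called down beside 3.10% of all genes, and it was -1.39 to -1.15 with each library left out.

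The direction of the Aco010452 difference changed between samplings, always under 2-fold in the other 5 comparisons with an adjusted p under 0.05. At the apex it was -0.69 ± 0.16 on the log2 scale on day 3, from 377, 410 and 534 CPM to 248, 254 and 315 CPM (adjusted p 0.00174). A day later it was 0.89 ± 0.09, from 290, 294 and 326 CPM to 509, 554 and 646 CPM (adjusted p 5.51e-09). On day 6 it was 0.36 ± 0.12 (0.0369) and on day 8 -0.51 ± 0.12 (0.000739). The libraries of the groups did not overlap in any of these, which is a description with no share of all genes beside it. In leaf bases at 6 h it was 0.80 ± 0.17 (0.00245), from 362, 331 and 354 CPM to 477, 625 and 703 CPM, with log2 ratios of 0.79 and 0.71 within the shared lanes. With each library left out in turn, the highest adjusted p by edgeR was 0.161 at the apex on day 6. It stayed under 0.05 in the others.

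Aco002499 differed little with ethephon. Over the 13 comparisons its log2 fold change ran from -0.37 to 0.49, and its adjusted p was under 0.05 only at the leaf base at 6 h (0.49 ± 0.16, 0.0325), where controls held 120, 109 and 152 CPM and treated libraries 164, 189 and 179 CPM. With each library left out in turn, the adjusted p of that difference by edgeR was 0.152 at its highest. Aco006353 differed at 3 apex samplings, less than 2-fold each time. It was lower after ethephon on day 1 by -0.57 ± 0.15 (adjusted p 0.00431) and on day 2 by -0.54 ± 0.12 (0.000926), and higher on day 8 by 0.65 ± 0.12 (3.47e-05). The highest adjusted p with a library left out was 0.0599 on day 1, 0.0113 on day 2 and 0.000355 on day 8. The day 8 values were 80.6, 82.5 and 80.2 CPM in the controls and 130, 120 and 129 CPM after ethephon, with no overlap. The treated apices of day 8 include the library with the lowest total, 1418697 counts, and came from lanes of another flow cell than the controls.

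Whether the ethephon effect itself differed between the tissues was tested by an interaction term in a fit of all 12 libraries per sampling, given as the effect at the apex minus that at the leaf base. For Aco010603 it was called at 6 h, at -3.05 ± 0.31 on the log2 scale (adjusted p 6.3e-07), from an apex effect of 0.60 and a leaf base effect of 3.65. It was called with the opposite sign on day 3, at 1.18 ± 0.23 (adjusted p 0.000805), from effects of 1.73 and 0.54, and this call was lost without replicate 2 (0.92, adjusted p 0.0109). These were 2 of 25 tests of the receptors. The share of all genes called was 16.3, 9.80, 10.5, 10.0 and 7.38% at the 5 samplings in order. For Aco010603 the interaction was 0.95 ± 0.27 on day 2 (adjusted p 0.0203) and -0.74 ± 0.23 on day 4 (0.0361), and for Aco010452 it was 0.95 ± 0.23 on day 4 (0.007), all under the limit of 2-fold. Without replicate 3 these 3 values were 1.03, -1.03 and 1.18 and were called, and without replicate 1 that of Aco010452 was 1.00 and was called.

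The ethephon effect also differed between samplings within a tissue. At the apex the largest and smallest effects over the 8 samplings differed by 1.83 on the log2 scale for Aco010603 (adjusted p 3.2e-07), by 1.59 for Aco010452 (1.19e-07) and by 1.19 for Aco006353 (1.77e-06). Here 3 of 5 receptors were called at the apex beside 36.6% of all genes. For the leaf base the difference was 4.63 for Aco010603 (7.9e-11) and 2.06 for Aco010452 (2.77e-06), 2 of 5 receptors beside 27.2% of all genes. For Aco002499 it was 0.36 at the apex (adjusted p 0.614) and 0.86 at the leaf base (0.0127), under the limit.

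Receptor levels also differed between apex and leaf base libraries without ethephon. No lane held water controls of both tissues at these samplings, so that lane and tissue cannot be told apart here. In water controls at 6 h, Aco010603 was at 97.1, 116 and 138 CPM at the apex and at 16.0 to 28.4 CPM at the leaf base, 2.43 ± 0.24 higher on the log2 scale (adjusted p 5.08e-07). It was 1.55 ± 0.15 higher at the apex on day 4 (5.99e-07), and on day 2, when the control leaf bases peaked, the difference was -0.27 ± 0.16 (0.228). Aco010452 was 1.36 ± 0.18 higher at the apex on day 1 (3.58e-05), at 566, 714 and 609 CPM against 173, 294 and 270 CPM. These were 3 calls among 25 tests, with 33.0, 21.5, 21.7, 28.3 and 33.3% of all genes called from 6 h to day 4. Aco002499 had values of the opposite sign, from -0.55 to -0.03 on the log2 scale, with an adjusted p under 0.05 on days 1, 3 and 4 but under 2-fold. Aco006353 had no adjusted p under 0.05, with differences from -0.28 to 0.40.

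After ethephon, Aco010452 was higher at the apex on day 2 (1.06 ± 0.17, adjusted p 3.11e-05), on day 3 (1.21 ± 0.14, 2.71e-07) and on day 4 (1.10 ± 0.16, 1.05e-05). The call on day 2 was lost without replicate 3 (0.85) and that on day 4 without replicate 2 (0.995), both by falling under the limit of 2-fold. Aco010603 was 1.56 ± 0.11 higher at the apex on day 3 (6.12e-10). At 6 h it was lower at the apex by -0.51 ± 0.18 (0.0486), from 151, 211 and 178 CPM at the apex and 241, 282 and 262 CPM at the leaf base. These were 4 calls among 25 tests, beside 20.5, 32.0, 32.2, 34.6 and 30% of all genes from 6 h to day 4. Without replicate 2 or replicate 3 the day 1 difference of Aco010603 (0.97 ± 0.16) was 1.11 or 1.05 and was called too. Aco002499 was again lower at the apex at all 5 samplings, by -0.92 to -0.30, and its adjusted p was under 0.05 at 4 of them. The water and ethephon comparisons of the tissues rest on different libraries. After ethephon, lanes held both tissues only on day 2, so that lane and tissue cannot be told apart at the other samplings.

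**Figure D5:**
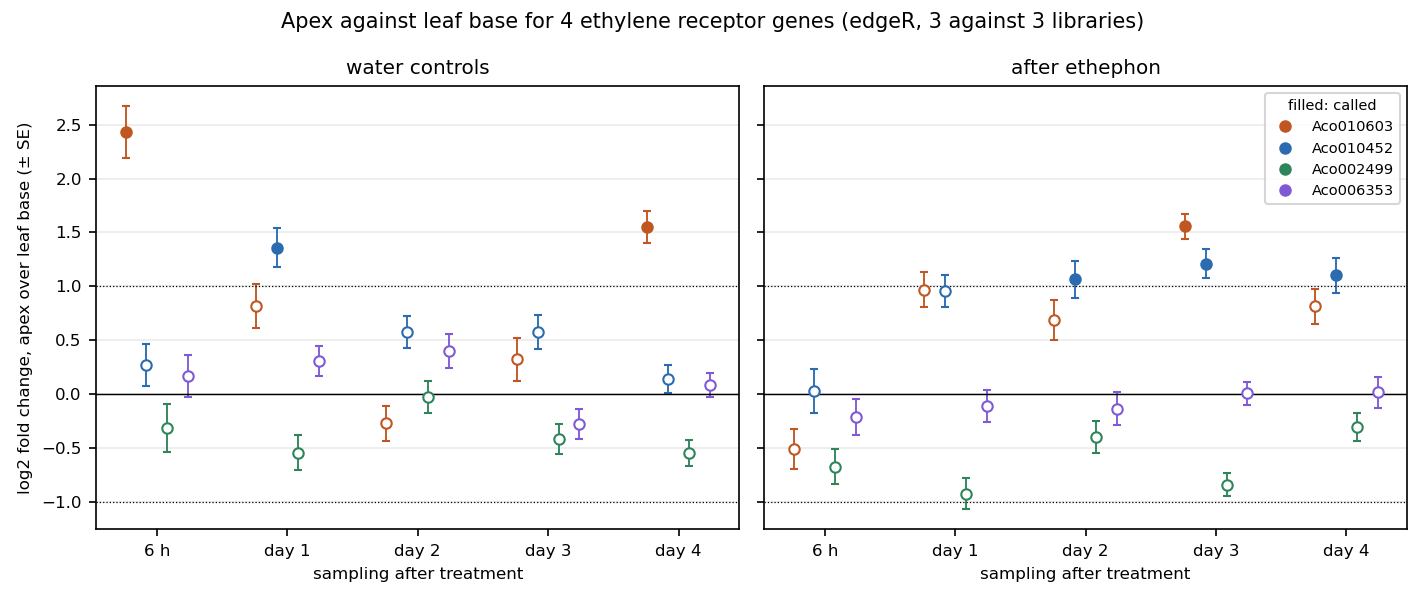
Log2 fold change of apex over leaf base (vertical axis, ± SE, edgeR, 3 against 3 libraries) for 4 receptor genes at the 5 samplings taken in both tissues, in water controls (left) and after ethephon (right). Filled points are calls and dotted lines mark a change of 2-fold. Aco002499 lies under 0 in every comparison, from -0.92 to -0.03.

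Over the samplings of each series, Aco010603 changed in all 4 series. The highest and lowest sampling differed by 1.47 on the log2 scale in water-control apices (adjusted p 2.22e-09), 1.67 in ethephon-treated apices (5.08e-12), 2.58 in water-control leaf bases (3.07e-08) and 2.53 in ethephon-treated leaf bases (1.9e-10). Aco010452 changed by 1.05 in water-control apices (1.41e-05), 1.25 in ethephon-treated apices (1.82e-07) and 2.31 in ethephon-treated leaf bases (3.43e-08), and differed by 0.49 in water-control leaf bases (0.209). These were 7 calls among 20 tests, beside 32.7, 41.0, 31.7 and 24.6% of all genes in the same order of series. The call of Aco010452 in water-control apices was lost without replicate 2 (0.93, adjusted p 0.00398). Over the 6 water-control apex samplings run on 1 lane, 6 h to day 5, Aco010603 differed by 1.47 (5.82e-08) and Aco010452 by 1.04 (4.8e-05), both called. Plants were harvested in the morning at every sampling, but those of 6 h were processed into the afternoon and later ones by noon. Sampling and the delay before freezing therefore cannot be told apart for the 6 h sampling.

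Downstream of the receptors, CTR1 (Aco007771), the kinase they hold active, and EIN2 (Aco005120) were each called in 0 of 13 comparisons of ethephon with water by edgeR, with log2 fold changes between -0.68 and 0.60. The adjusted p was under 0.05 for each in 5 of the 13, all under 2-fold, and the unadjusted p was under 0.05 in 6 for CTR1 and in 7 for EIN2. On apex days 1, 2, 4 and 6 both were lower after ethephon in this way. By the adjusted p alone, the share of all genes was 29.6, 37.7, 27.7 and 22.7% on these days. Over the 13 comparisons it was 19.4% of all tests by the adjusted p alone and 7.86% by the full rule for a call. The 3 EIN3/EIL genes gave 6 calls in 39 tests (3 up, 3 down). For the 3 ACC synthase genes (ACS) of ethylene synthesis it was 10 in 39 (3 up, 7 down). The 4 ACC oxidase genes (ACO), which make ethylene from ACC, gave 14 in 52 (9 up, 5 down) and the 7 early ERTF genes 44 in 91 (32 up, 12 down). The study chose these ERTF genes on the same samples, so that their count is no independent evidence of their direction. The receptors gave 4 calls in 65 tests. The study named the EIN3/EIL and ACO genes as differentially expressed in the same samples, and the receptors as expressed. Lists chosen in such different ways cannot be ranked by their counts of calls. Among the receptors the study reports only Aco010603 as differentially expressed. It gives this gene as up at 6 h and down on day 2 at the leaf base, and up at the apex on day 3. Those are the 3 comparisons in which Aco010603 was called here. The call of Aco010452 at the leaf base on day 3 differs from that account.

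In the comparisons in which a receptor was called, the pathway moved as follows on the log2 scale. At the leaf base at 6 h, where Aco010603 rose, the EIN3/EIL gene Aco015335 was up by 1.34, the ACS gene Aco015517 changed by -3.35, and the ACO genes changed by -6.24 (Aco003285), -1.24 (Aco001358), 1.98 (Aco005735) and 2.58 (Aco015240). Of the ERTF genes, Aco001844 and Aco018980 were up by 2.52 and 1.89 there, and Aco016346 and Aco001190 changed by -2.84 and -2.04. The median over the 4 receptors other than Aco024515 was 0.65, beside 0.02 over all genes. At the apex on day 3, Aco015517 and the ACS gene Aco000276 changed by -2.98 and -1.66, the ACO gene Aco001358 by -1.89, and the EIN3/EIL genes Aco017871 and Aco001697 by -1.58 and 1.15. The ERTF genes Aco001190, Aco001844 and Aco002824 were up by 2.07, 2.04 and 1.12. The median over the same 4 receptors was -0.05, beside -5e-04 over all genes. In leaf bases of day 2 the ERTF gene Aco001318 was the only other listed pathway gene called, up by 2.72. In leaf bases of day 3, where Aco010452 fell, Aco015517, Aco005735 and Aco001697 were up by 2.60, 2.63 and 2.84, Aco015240 changed by -1.15, Aco003285 held 1, 2 and 1 counts against 41, 43 and 9 in the controls, Aco001318 and Aco002824 were up by 1.63 and 1.22, and Aco016346 changed by -2.10. Exons of Aco001358 overlap those of another gene, so that its reads may include reads of that gene.

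The receptors did not follow each other closely over the 26 conditions. Pearson's r of the condition means of log2 CPM was 0.394 between Aco010603 and Aco010452, -0.306 between Aco010603 and Aco002499 and -0.578 between Aco010452 and Aco002499. The points share libraries and scaling and are given as a description. The genes most like Aco010603 among 19823 others were Aco002518 (r 0.866), Aco003121 (0.835) and Aco010730 (0.805). For Aco010452 they were Aco011366 (0.918), Aco023735 (0.902) and Aco020019 (0.885). For Aco002499 they were Aco014528 (0.925), Aco025683 (0.916) and Aco001492 (0.916), and for Aco006353 they were Aco003365 (0.842), Aco012941 (0.840) and Aco015288 (0.822). No such genes are given for Aco024515, whose counts are too few.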

How the data were processed

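The authors trimmed reads with Trimmomatic 0.36, aligned them with HISAT2 2.0.5 to the pineapple assembly Acomosus_321_v3 and deposited raw counts per gene and library from featureCounts 1.6.0, made without strand and with reads of several positions included, although the TruSeq kit keeps strand. Reads were checked with FastQC 0.10.1, per the labels. All values here are computed from these 78 deposited count tables. Tissue, treatment, sampling, replicate and lane came from the labels. Every gene with a count in the libraries fitted was tested with edgeR 4.0.16 in R 4.3.3 (TMM, quasi-likelihood, Benjamini-Hochberg over all genes of a comparison) and called at an adjusted p under 0.05 and 2-fold or more. The background is the share of all genes tested that met the same rule. Ranges over samplings had to reach 1 on the log2 scale. Levels are log2 CPM with TMM factors from 19824 genes and a prior count of 0.25. DESeq2 1.42.0, RLE factors, a filter of 1 CPM in 3 libraries, other limits on the fold change, a replicate block, joint fits with and without lane, a prior count of 2 and each replicate left out were alternatives. A check within lanes was added after the data were seen. The main edgeR test ran first on simulated counts with known changes, for 1 comparison of each kind except the tissues after ethephon. The alternatives were not run on simulated counts. With 3 libraries against 3, an exact test of 1 gene cannot give a p under 0.1, and p-values measure the spread between plant pools of 1 field. Statements that groups did not overlap are descriptions, since the share of all genes without overlap was not taken.

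The members and gene lists were chosen with earlier results of these data known. The text names the 5 receptors in all comparisons, the pathway genes that were called in the same comparison as a receptor, and for each receptor the 3 genes with the highest correlation over conditions. No sequences were used here. The leaf base times rest on the Results of the paper, since its Methods also name a later leaf sampling.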

Additional observations from a re-analysis of the deposited data

Results flagged for a closer look

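The ethephon effect on Aco010603 differed between the tissues by a test of the difference at 6 h (-3.05 on the log2 scale, apex minus leaf base) and with the opposite sign on day 3 (1.18). It also differed between samplings within a tissue, by 1.83 from the smallest to the largest effect at the apex and by 4.63 at the leaf base. For Aco010452 this difference between samplings was 1.59 at the apex and 2.06 at the leaf base, and for Aco006353 it was 1.19 at the apex. Of these 7 results, the tissue difference of Aco010603 on day 3 was the only one that lost its call when a replicate was left out.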

How the results depend on the processing

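Over 1786 results for a receptor under an alternative setting, 1716 kept their side of the limits, 28 lost a call and 42 gained one. None of the called values changed sign, while 58 values that were called under neither setting changed sign. These results include the main fits read under other limits on the fold change, which are not separate fits. Most moves came from the limit on the fold change. Without it the number of receptor tests called was 16 instead of 4 for ethephon against water, 5 instead of 2 for the tissue difference in the effect, 9 instead of 3 for the tissues in water controls, 13 instead of 4 for the tissues after ethephon and 11 instead of 7 for change over samplings. With a log2 fold change above 2 these counts were 1, 1, 1, 0 and 3, and it was 2 instead of 5 for change of the effect over samplings. Without the limit, 19.4% of all tests of all genes were called for ethephon against water. No share of all genes is given for the other counts under changed limits, so they are no result about the receptors. Leaving out a replicate number gave 1 to 5 calls of the tissue difference in the effect. DESeq2 and RLE factors changed no call. The filter of 1 CPM and the joint fit without lane ended the leaf base day 2 call of Aco010603, at -1.01 (adjusted p 0.0681) and -0.99 (0.000406, under 2-fold). The joint fit with lane, which could be made only for day 6 at the apex and the first 3 leaf base samplings, gave 3 calls instead of 2. With the replicate number as a replicate block, 3 of 65 ethephon tests were called, since the same leaf base day 2 value became -1.04 (adjusted p 0.0827), and no other receptor call changed. The field replications may underlie the replicate numbers, which the labels do not state. Over 39 pairs of same-numbered water and ethephon libraries the correlation of their deviations from the group means was -0.15 to 0.0818, so the fit without the block was kept, and a small effect of the replications remains possible. Of 130 condition levels, 23 moved by more than 1 SD with library size only, 13 with a prior count of 2, all of Aco024515, and 1 with RLE factors. Depth limits Aco024515, for which a difference of a few counts cannot be told from counting error.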
